A study of Homo sapiens with 22 samples.

Results

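The regions described here are the shorter stretches of exon that lie close to a listed N6-methyladenosine (m6A) site, measured in HEK293T, an established human embryonic kidney cell line. Their limits are of length and position alone: an exonic bin under 1000 bp long, in a gene model that names a single gene, and at most 3000 bp from the nearest m6A site listed for that model. Of the 2635 bins per the authors' deposited table of exon usage, 483 met these limits (18.3%), in 206 of the 636 gene models. The usage values do not enter these limits.

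An exonic bin is the piece of exon between neighbouring exon borders of a gene model, and its usage is its share of the reads of that model, so any shift of 1 bin moves its neighbours' values too. The series compared wild-type HEK293T controls with cells in which a single protein was knocked down, in 12 RNA-seq libraries in 6 groups of 2. One control group was paired with knockdowns of HNRNPG called KD1 and KD2, and a separate control group with knockdown of METTL3 and of METTL14. No source used here gives the knockdown reagents or what sets KD1 apart from KD2, nothing says whether replicate libraries were separate cultures, and 10 crosslinking libraries were not analysed here. The levels of RBMX, METTL3 and METTL14 were not analysed here either, so the knockdowns were not checked.

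m6A is a methyl mark on adenosines inside messenger RNA. METTL3 carries the catalytic activity of the nuclear complex that writes it, and METTL14 is its partner that helps to bind the RNA. HNRNPG, the product of RBMX, binds RNA in the nucleus, acts on splice site choice and has been described as binding m6A-modified transcripts. Marks of this kind are known to gather in long internal exons and around stop codons. A shorter bin beside a site may be a piece of the marked exon or of a neighbouring exon, which was not determined here.

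All values below are log2 of knockdown over control from the authors' deposited table, with the deposited sign turned so that values below 0 mean less usage after knockdown. They are 1 value per bin and comparison, with no value per library, no error and no p-value used here. The depth behind each bin is therefore unknown, no difference was tested against the spread between replicates, and "lower" and "higher" describe the listed values only. KD1 and KD2 were set against the same control libraries, as were METTL3 and METTL14, so each pair is given side by side. A bin is called past 0.5 where its size is at least 0.5, and for HNRNPG where KD1 and KD2 both are, on the same side.

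The near-site bins were short pieces of exon. Their median length was 131 bp, with quartiles of 53 and 363 bp, and 57 of them (11.8%) were under 20 bp, against 9.18% in the whole table. They made up 37.5% of the 1288 shorter bins of single-gene models, and the other 805 lay farther from a site, with a median length of 150 bp. A site lay inside 36 bins of 33 models. Seen from the bin on the gene's strand, the nearest site lay upstream (5') of 209 bins of 127 models and downstream (3') of 238 bins of 111 models. Outside the bin the median distance to it was 1110 bp in the genome, introns included, and it ranged from 2 to 2994 bp.

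Members were not independent of each other. The 483 bins shared 238 distinct nearest sites, and 238 bins stood in 91 runs of at least 2 bins that abut without a gap. The longest run held 6 bins. A single near-site bin was listed for 96 models, while NIT1 alone had 13. They lay on 22 chromosomes, with 88 bins on chromosome 1 and 42 on chromosome 19, and on both strands (262 plus, 221 minus).

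The limits cut through a continuous range of bins. Just inside the length limit were bin 3 of SRSF7, a splicing factor of the SR family, at 981 bp, and bin 42 of TTC15 at 982 bp. By the authors' deposited table the SRSF7 bin had -0.14 in KD1 and -0.36 in KD2, with 0.38 in METTL3 and -0.16 in METTL14. Just past the limit were HIST1H2BK bin 2, from a histone H2B gene, at 1022 bp and ZNF271 bin 8 at 1033 bp. Those 2 bins were below 0 in each of the 4 comparisons of the authors' deposited table, with the HIST1H2BK bin between -0.77 and -0.40. For distance, C1orf77 (CHTOP) bin 14 at 2944 bp and CLDN15 bin 28 at 2994 bp were kept. CAMK2G bin 27 at 3001 bp and COPS8 bin 36 at 3015 bp were not. COPS8, a subunit of the COP9 signalosome, was listed above 0 throughout, from 0.19 in KD1 to 1.26 in METTL14 per the authors' deposited table, and CAMK2G below 0 throughout, from -0.60 in KD2 to -0.15 in METTL14.

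Across all 483 bins, usage per the authors' deposited table centred slightly below 0. The medians were -0.048 in KD1 and -0.057 in KD2, with -0.081 in METTL3 and -0.054 in METTL14, beside -0.037, -0.064, -0.039 and -0.043 over all 2635 bins. The share of bins below 0 ran from 55.5% in KD2 to 57.8% in METTL14. The near-site bins thus lay close to the table as a whole in each comparison.

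Few near-site bins were past 0.5 in both HNRNPG knockdowns. There were 32 of them (6.63%) beside 7.13% of all bins of the authors' deposited table. The lower side held 13 bins of 10 models (background 4.1%) and the higher side 19 bins of 9 models (background 3.04%), so 40.6% of the bins past 0.5 were lower, against 57.4% in the whole table. This order of sides depended on how bins were counted: with 1 value per run of abutting bins it was 10 lower and 8 higher. Of the 32 bins, 10 were under 20 bp.

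More near-site bins were past 0.5 in METTL3, where a single value decides. By the authors' deposited table, 137 near-site bins (28.4%) were past 0.5, beside a background of 22.4%. The lower side held 93 of them in 55 models (background 14.8%) and the higher side 44 in 29 models (background 7.63%), which makes 67.9% lower, against 65.9% in the table. For METTL14, 79 bins (16.4%) were past 0.5, beside a background of 16.0%. Of these 58 in 33 models were lower (background 10.6%) and 21 in 15 models higher (background 5.46%), or 73.4% lower against 65.9%. With 1 value per run of abutting bins, 35 of the 52 METTL14 runs past 0.5 were lower (67.3%). With 1 value per model it was 18 of 26 (69.2%), against 66% over all models of the table.

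The shorter bins farther from any listed site gave 12.0% past 0.5 in HNRNPG, 26.0% in METTL3 and 20.1% in METTL14, from the authors' deposited table. Long bins of single-gene models gave 5.97%, 23.9% and 19.2%, and bins of models that join several genes 3.89%, 16.3% and 11.7%. The near-site share was the highest of the 4 classes in METTL3 and lay between the others in HNRNPG and METTL14. The difference between these classes was not tested.

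**Figure D1:**
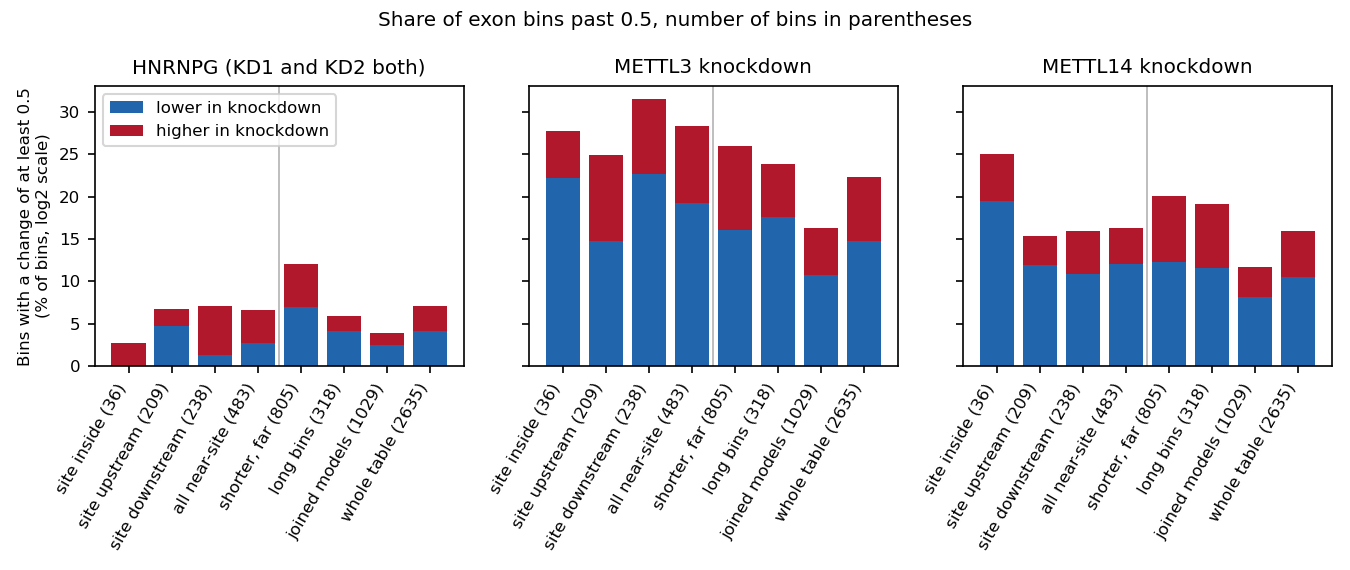
Share of bins (percent, y axis) with a size of at least 0.5 on the log2 scale in HNRNPG (both KD1 and KD2), METTL3 and METTL14 knockdown, stacked as lower and higher usage, for near-site bins by where the nearest site lies (left of the grey line) and for other bin classes of the table (right). In HNRNPG the bins with a downstream site are mostly on the higher side and those with an upstream site mostly on the lower side, while in METTL3 and METTL14 the lower side is the larger in every class.

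The 36 bins with a listed site inside are called marked bins here, though whether they carry the mark in these cells was not checked. Their sites lay at a median of 61.0% of the bin's length from its 5' end, with 10 in the 5'-most 25% and 14 in the 3'-most 25%, and 4 bins held 2 sites. By the authors' deposited table, 10 of them (27.8%) were past 0.5 in METTL3, 8 lower and 2 higher, and 9 (25%) in METTL14, 7 lower and 2 higher. In HNRNPG 1 (2.78%) was past 0.5, on the higher side. Over all bins the shares were 22.4% in METTL3, 16.0% in METTL14 and 7.13% in HNRNPG, with 65.9% of those past 0.5 lower in METTL3 and in METTL14. With 36 bins these counts are small, and no difference was tested. Longer single-gene bins with a site inside (29 bins) gave 20.7% in METTL3 and 27.6% in METTL14.

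The one bin past 0.5 in HNRNPG belonged to C11orf59 (LAMTOR1), a subunit of the Ragulator complex that anchors mTORC1 signalling at the lysosome. Bin 2 (chromosome 11, 71796745 to 71797490, minus strand, site at 71796980) had 0.55 in KD1 and 0.93 in KD2, with 1.38 in METTL3 and 0.33 in METTL14 per the authors' deposited table. The bin 5' of it, bin 3, was also higher in every comparison, with 0.56, 0.73, 1.18 and 0.42 per the authors' deposited table. Bin 1, the 3' neighbour, had 0.72, 0.51 and 1.19 but -0.22 in METTL14 per the authors' deposited table. These 3 abutting bins were among the highest near-site values of METTL3.

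Among the marked bins that were lower in METTL3, DEF8 bin 65 (chromosome 16, 90030578 to 90030628) stood lowest, at -1.48, with -0.58 in KD1, -0.38 in KD2 and -0.07 in METTL14 per the authors' deposited table. ZDHHC3, a palmitoyltransferase of the Golgi, had -1.13 in METTL3 in bin 4 (chromosome 3, 44959074 to 44959476), with -0.12, -0.68 and -0.13 in KD1, KD2 and METTL14 per the authors' deposited table. A marked bin of each of 2 autophagy genes was below 0 in all 4 comparisons. So were other marked bins, among them bins of DEF8, ZDHHC3, NASP, RPL31, DPH3 and PCNT, so this was not particular to autophagy genes. ATG12, a ubiquitin-like protein that is conjugated during autophagosome formation, had -0.80, -0.37, -0.90 and -0.59 in bin 24 (chromosome 5, 115170859 to 115171635) per the authors' deposited table, in the order KD1, KD2, METTL3 and METTL14. ATG4B, the protease that processes LC3, had -0.19, -1.04, -0.72 and -0.25 in bin 43 (chromosome 2, 242598995 to 242599732) per the authors' deposited table. LOC100129917 bin 12 was -0.94 in METTL3 but 0.27 in METTL14 per the authors' deposited table.

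METTL14 had its lowest marked bin in NASP, a histone chaperone. Bin 34 (chromosome 1, 46073276 to 46073336) had -0.33 in KD1 and -1.11 in KD2, with -0.42 in METTL3 and -0.79 in METTL14 per the authors' deposited table. HP1BP3, a chromatin protein related to linker histones, also had -0.79 in METTL14 in bin 32, with 0.67 in KD1, -0.18 in KD2 and -0.37 in METTL3 per the authors' deposited table. The HNRNPG values of that bin lay on opposite sides. NKIRAS1, an inhibitor of NF-kappaB signalling, had 2 marked bins, and its bin 4 had -0.71 in METTL14 beside 0.29, 0.14 and 0.08 in KD1, KD2 and METTL3 per the authors' deposited table. RPL31, a protein of the large ribosomal subunit, had -0.25, -0.63, -0.63 and -0.68 in bin 19 (chromosome 2, 101620824 to 101621612) per the authors' deposited table.

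On the higher side, the sterol transfer protein GRAMD1A had 0.18, 0.61, 0.59 and 0.25 in bin 14 (chromosome 19, 35496589 to 35496835), in the order KD1, KD2, METTL3 and METTL14 of the authors' deposited table. The bin labelled EIF4E.1, from the locus of the cap-binding translation factor, had 0.73 in METTL14 and 0.05 in METTL3 in bin 29 per the authors' deposited table. ELAVL1 (HuR), which binds AU-rich elements of mRNAs, had 0.51 in METTL14 and 0.01 in METTL3 in bin 18, with 0.28 and 0.75 in KD1 and KD2 per the authors' deposited table. Both were thus past 0.5 in METTL14 and close to 0 in METTL3.

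**Figure D2:**
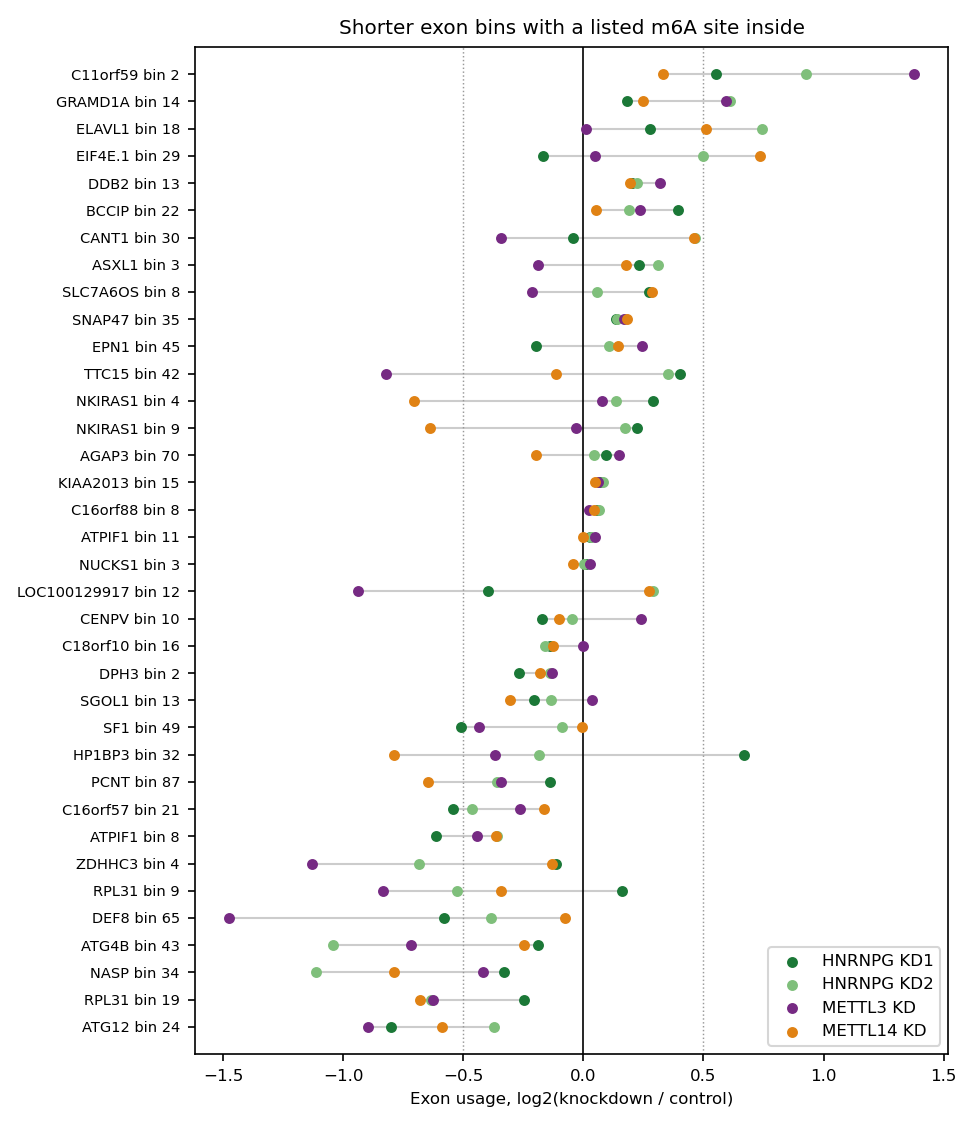
Usage of the 36 shorter bins that hold a listed m6A site, as log2 of knockdown over control (x axis), with 1 row per bin and 1 point per comparison, ordered by their median. C11orf59 bin 2 stands at the top, above 0 in all 4 comparisons, and ATG12 bin 24 at the bottom, below 0 in all 4. Dotted lines mark a size of 0.5.

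Bins with the nearest site upstream lay 3' of it, and in HNRNPG more of them were past 0.5 on the lower side. By the authors' deposited table, 14 of the 209 (6.70%) were past 0.5, beside 7.13% of all bins. Of the 14, 10 were lower in 8 models and 4 higher in 4 models. ARFIP2 (arfaptin-2), which binds small GTPases at the Golgi, had the lowest usage by the smaller of KD1 and KD2, with -1.23 in KD1 and -1.88 in KD2 in bin 20 (chromosome 11, 6499809 to 6499882, 621 bp from its site) per the authors' deposited table. The same bin had -6.13 in METTL3, the lowest METTL3 value of any near-site bin, and -0.48 in METTL14 per the authors' deposited table. SRRT, which links the nuclear cap-binding complex to RNA processing, had -1.30 and -1.19 in bin 62, a bin of 1 bp, per the authors' deposited table. KIAA2013 bin 10 had -0.66 and -1.12, and C19orf12, a mitochondrial membrane protein, -0.64 and -1.01 in bin 9 per the authors' deposited table.

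The 4 bins on the higher side came from FZR1, HNRNPH3, MORN1 and C11orf59. FZR1, which activates the anaphase-promoting complex, had 0.83 in KD1 and 1.42 in KD2, with 1.65 in METTL3 and 0.73 in METTL14 in bin 7 (chromosome 19, 3526182 to 3526256) per the authors' deposited table. Its site lay 26 bp upstream of the bin. HNRNPH3, a splicing regulator that binds G-rich RNA, had 0.60 in both HNRNPG knockdowns and 0.64 in METTL3 but 0.02 in METTL14 in bin 54 per the authors' deposited table. MORN1 bin 29 had 0.58 and 0.83 in KD1 and KD2 and -0.73 in METTL3 per the authors' deposited table.

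In METTL3, 52 of the bins with an upstream site (24.9%) were past 0.5, beside 22.4% of all bins, with 31 lower and 21 higher. Of the 209 bins, 47.8% were below 0 per the authors' deposited table, against 53.4% of all bins. After ARFIP2 the lowest was NUCKS1, a chromatin-associated nuclear protein, with -2.31 in METTL3, -2.61 in KD1, -0.51 in KD2 and 0.17 in METTL14 in bin 6 (chromosome 1, 205688805 to 205689628) per the authors' deposited table. That bin started 36 bp past its site, while the marked bin 3 of the same gene stayed between -0.04 and 0.03 per the authors' deposited table. The nucleotidase CANT1 had -2.10 in METTL3 and -0.69 in METTL14 in bin 33 but 1.24 in KD2, and TOX4, a DNA-binding protein of the HMG-box family, had -1.82 in METTL3 in bin 30 per the authors' deposited table. PCNP bin 29, of 3 bp, was 1.54 in METTL3 and -1.95 in METTL14 per the authors' deposited table.

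For METTL14, 32 of the bins with an upstream site (15.3%) were past 0.5 per the authors' deposited table, beside 16.0% of all bins. Of the 32, 25 were lower and 7 higher. After PCNP and C19orf12 (-0.84), RFC5, a subunit of the clamp loader of DNA replication, had -0.81 in bin 37 per the authors' deposited table. The highest was PPM1G, a protein phosphatase linked to splicing factors, with 1.90 in METTL14 and 1.40 in METTL3 but -0.91 and -0.37 in KD1 and KD2 in bin 7 per the authors' deposited table. MPRIP, which targets myosin phosphatase to actin, had 0.83 in METTL14 in bin 33, and SPCS1, a subunit of signal peptidase, 0.76 in bin 19 per the authors' deposited table.

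Bins with the nearest site downstream lay 5' of it, and here the HNRNPG bins past 0.5 were mostly higher. By the authors' deposited table, 17 of the 238 (7.14%) were past 0.5, beside 7.13% of all bins. Of the 17, 3 were lower in 2 models and 14 higher in 6 models. The 14 were 4 bins of ACTG1, 3 of TUBA1B, 3 of LDHA, 2 of TTC15 and 1 each of C11orf59 and PRPF8. Counted as runs of abutting bins, they came to 6 higher runs against 1 lower, while the bins with an upstream site came to 3 higher against 9 lower. Over all bins of each position the values did not follow this contrast. With a downstream site 58.8% of bins were below 0 in KD1 and 58.0% in KD2, with medians of -0.062 and -0.075, against 53.1% and 54.5% with an upstream site, with medians of -0.021 and -0.065. With 1 value per model this order turned. Of 111 models with a downstream site 49.5% were below 0 in KD1 and 52.3% in KD2, with medians of 0.014 and -0.012. Of 127 models with an upstream site 58.3% were below 0 in both, with medians of -0.069 and -0.082. The order of the positions over all values thus depended on the unit counted, and it was not tested.

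ACTG1 and TUBA1B gave very short bins. ACTG1, the cytoplasmic gamma actin, had 4 abutting bins of 2 to 14 bp, 682 to 690 bp from its site, with 0.86 to 0.93 in KD1 and 0.56 to 0.65 in KD2 per the authors' deposited table. The same bins had 0.17 to 0.21 in METTL3 and 0.49 to 0.58 in METTL14. The other near-site bin of ACTG1, bin 45 (3 bp), stayed between -0.05 and 0.07 per the authors' deposited table. TUBA1B, an alpha-tubulin, had 0.94 to 0.98 in KD1 and 0.72 to 0.75 in KD2 in bins 23 to 25, while bin 5 stood between -0.02 and 0.01 per the authors' deposited table. Both genes have near-identical relatives and pseudogenes, and no source used here says how reads shared with those were counted, so their values are uncertain.

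LDHA, which interconverts pyruvate and lactate, gave a longer block. How reads that also match other loci were counted is unknown for LDHA too. Bins 17 to 19 (chromosome 11, 18417813 to 18418157), 278 to 409 bp before the site, had 0.82 to 1.00 in KD1 and 0.91 in KD2, with 0.61 to 0.90 in METTL3 and 0.21 to 0.44 in METTL14 per the authors' deposited table. Bin 28, the near-site bin past the site at 2661 bp, was lower in all 4, from -0.47 in METTL14 to -0.22 in KD1 per the authors' deposited table. PRPF8, the central protein of the spliceosome, had 1.55 and 0.92 in KD1 and KD2 in bin 48 (chromosome 17, 1576862 to 1577039, 68 bp from its site), with -1.99 in METTL3 and -0.63 in METTL14 per the authors' deposited table. It was the highest near-site bin of HNRNPG in this position and the lowest of METTL3.

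The 3 lower bins were in MRPS11 and PDCD2. MRPS11, a protein of the small mitochondrial ribosomal subunit, had -0.99, -1.03, -0.27 and -0.70 in bin 10 (chromosome 15, 89011014 to 89011138) in KD1, KD2, METTL3 and METTL14 of the authors' deposited table. PDCD2, a chaperone of a ribosomal protein, had -0.60, -0.82, -0.69 and -0.43 in bin 23 in the same order of the authors' deposited table.

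Of the 3 positions, METTL3 had its largest share past 0.5 with a downstream site, 75 of 238 bins (31.5%), beside 22.4% of all bins. Of the 75, 54 were lower and 21 higher. Of the 238 bins 64.7% were below 0 per the authors' deposited table, against 47.8% of those with an upstream site and 53.4% of all bins. As runs of abutting bins, 35 were lower and 14 higher past 0.5, against 24 and 18 with an upstream site. The difference between the positions was not tested. CTNNB1, which encodes beta-catenin, followed PRPF8 with -1.80 in METTL3 in bin 15 (chromosome 3, 41265681 to 41265812) per the authors' deposited table. The same bin had -7.51 in KD2 but -0.28 in KD1 and -0.21 in METTL14 per the authors' deposited table, so its 2 HNRNPG values were far apart.

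The highest METTL3 value among all near-site bins belonged to RAN, the small GTPase of nuclear transport, with 2.35 in bin 17 and 0.14 in METTL14 per the authors' deposited table. RAN has processed pseudogenes, so this value is uncertain in the same way. MPRIP bin 30 (chromosome 17, 17067423 to 17067636) was high in both METTL comparisons, at 1.33 and 1.53, beside -0.11 in KD1 and 0.82 in KD2 per the authors' deposited table. MAP3K7 (TAK1), a kinase of innate immune and TGF-beta signalling, had 0.97 in METTL3 and -0.54 in METTL14 in bin 25 per the authors' deposited table.

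METTL14 had 38 of the 238 past 0.5 (16.0%), the same share as over all bins (16.0%), with 26 lower and 12 higher. The lowest was AKAP8L, a nuclear scaffold protein, with -1.17 in bin 16 and -0.72 in METTL3 per the authors' deposited table. Its bins 19 and 22 had -0.28 and 0.725 in METTL14, so its near-site bins lay on both sides. CLDND1 bin 38, of 7 bp, had -1.09, and MKNK2, a kinase that phosphorylates EIF4E, also -1.09 in bin 8 per the authors' deposited table. EIF3K, a subunit of translation initiation factor 3, had -0.97 in bin 27 and -0.007 in bin 25 per the authors' deposited table. Its bins 20 and 21, with an upstream site, had 0.58 and 0.43 in METTL14. After MPRIP, the highest were HMGN2, a nucleosome-binding protein, with 0.87 in bin 3, UBE2J2, an ER-bound ubiquitin-conjugating enzyme, with 0.83 in bin 41, and the mitochondrial pyrophosphatase PPA2 with 0.74 in bin 56 per the authors' deposited table. HMGN2 is a gene with many pseudogenes.

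**Figure D3:**
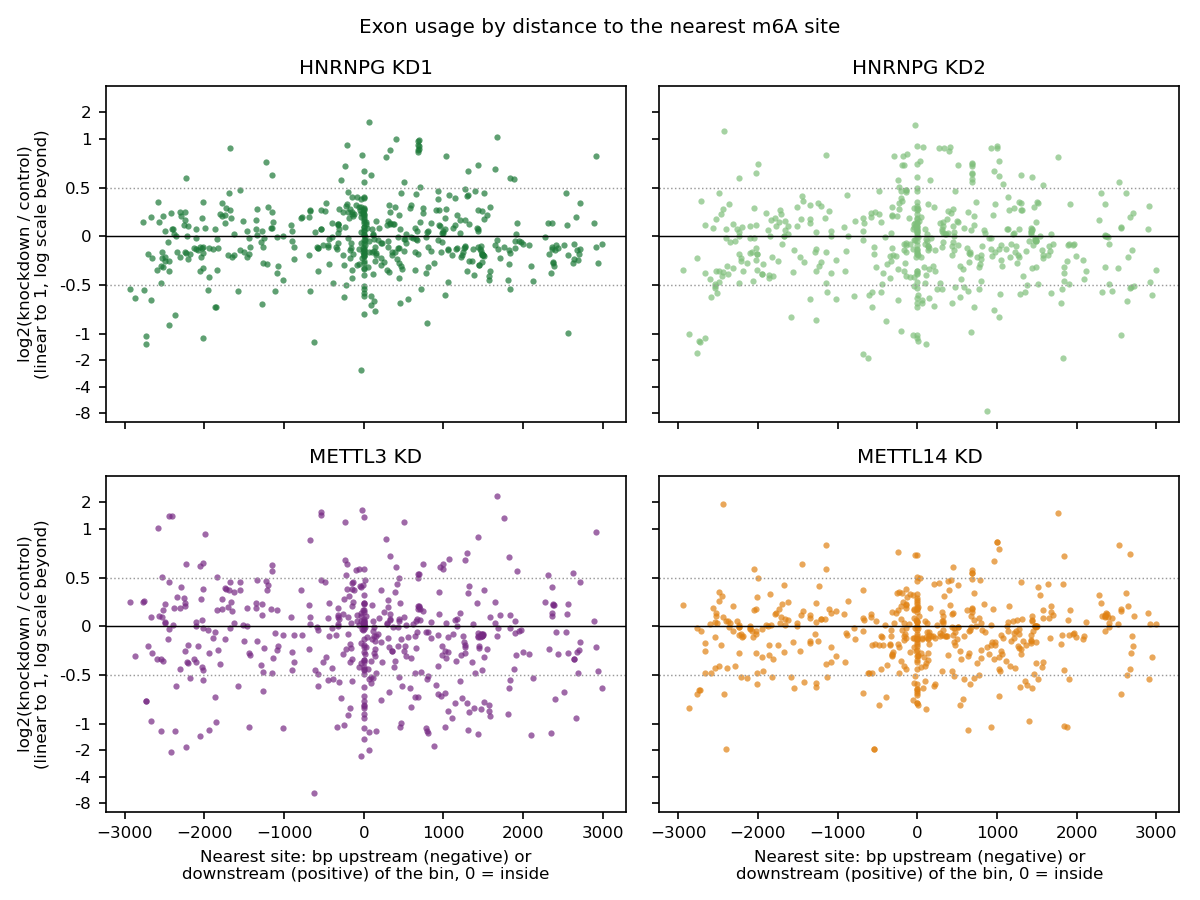
Usage of the 483 near-site bins (log2 of knockdown over control, y axis, linear to 1 and log beyond) against the distance in bp to the nearest site (x axis; negative where the site is upstream of the bin, positive where it is downstream, 0 where it is inside), with 1 panel per comparison and dotted lines at 0.5 and -0.5. The cluster of KD1 points near 0.9 between 682 and 690 bp is made up of ACTG1 and TUBA1B bins.

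Distance did not order the shares in one direction. From the authors' deposited table, METTL3 bins past 0.5 made up 28.6% at 1 to 100 bp (35 bins), 25% at 101 to 500 bp (100), 33.8% at 501 to 1000 bp (74), 27.5% at 1001 to 2000 bp (142) and 29.2% at 2001 to 3000 bp (96). METTL14 gave 22.9%, 8.00%, 21.6%, 16.2% and 15.6% in the same bands. HNRNPG gave 8.57%, 6.00%, 14.9%, 2.82% and 7.29%, and the 501 to 1000 bp band held the ACTG1 and TUBA1B bins. In the farthest band 69.8% of bins were below 0 in KD1 and 64.6% in KD2, against 44.6% and 55.4% at 501 to 1000 bp.

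For HNRNPG the shortest bins had the highest share. Bins of 1 to 19 bp were past 0.5 in 17.5% of 57, against 4.35% of 138 bins of 20 to 99 bp, 5.48% of 146 of 100 to 299 bp and 5.63% of 142 of 300 to 999 bp per the authors' deposited table. Those 10 shortest bins came from ACTG1, TUBA1B and TTC15 on the higher side and from SRRT and ACIN1 on the lower side. In METTL3 the shares were 21.1%, 29.0%, 30.8% and 28.2% across the same bands, so the shortest bins had the lowest share there.

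The HNRNPG and METTL comparisons had separate control libraries, so the side of each bin can be set side by side. Of 363 near-site bins with KD1 and KD2 on one side, METTL3 lay on that side in 283 (78.0%, beside 71.4% in the whole table), and METTL14 in 254 of 359 (70.8%, beside 71.4%). Among the marked bins the counts were 24 of 30 for METTL3 and 24 of 29 for METTL14. Spearman's rho across the 483 bins between the mean of KD1 and KD2 and METTL3 was 0.48 (0.41 over all bins), and with METTL14 0.36 (0.42 over all bins). Bins of 1 model share reads and often a site, so these describe the table and carry no test. Past 0.5 in both HNRNPG and METTL3 were 23 bins, 18 of them on the same side, and in both HNRNPG and METTL14 12, 10 of them on the same side. The whole table had 117 and 88 such bins of 2635, with 105 and 79 on the same side, so near-site bins past 0.5 in both were a like share of the bins, with a smaller part of them on the same side, which was not tested.

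**Figure D4:**
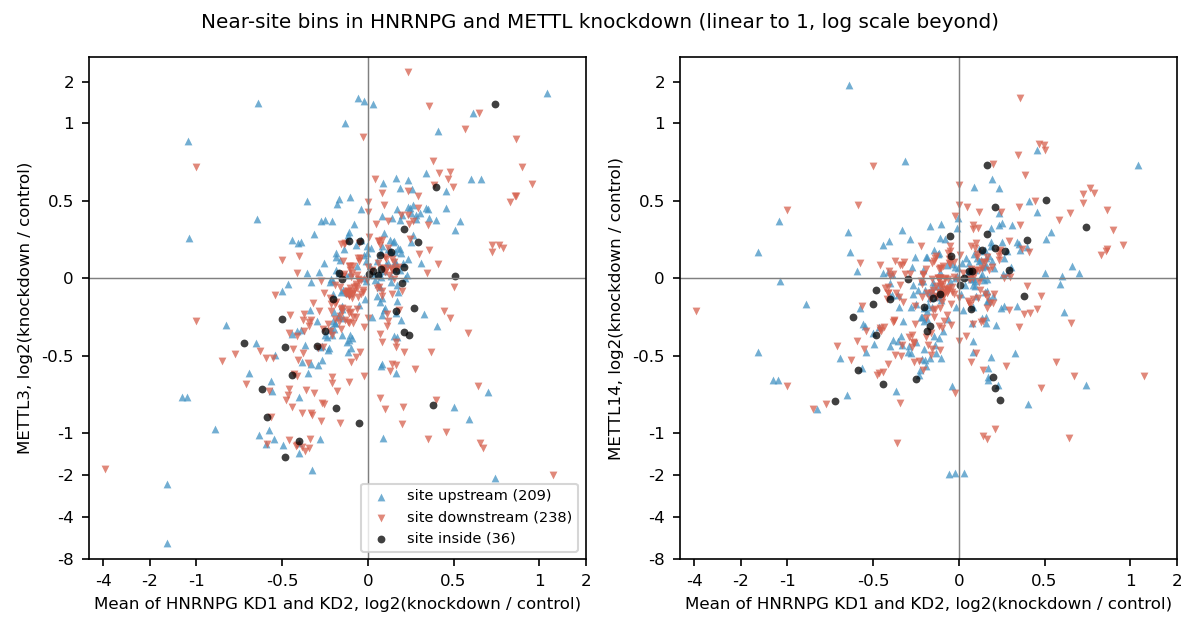
Near-site bins by the mean of KD1 and KD2 (x axis) and by METTL3 (left) or METTL14 (right) usage (y axis), all as log2 of knockdown over control, linear to 1 and log beyond, with the position of the nearest site by colour and shape. Most points lie at the lower left and upper right, on one side of 0 on both axes, and PRPF8, PPM1G and CANT1 are among the points that do not.

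A smaller set was on one side with a size of at least 0.3 in all 4 comparisons. It held 25 bins of 14 models (5.18%, background 5.69%), of which 20 were lower and 5 higher. The higher 5 were bins 2 and 3 of C11orf59, 18 and 19 of LDHA and bin 7 of FZR1, given above. The lower ones included 3 bins each of NASP, ATPIF1, PDCD2 and SRRT and 2 of RPS6. The remaining 6 were single bins of ARFIP2, ATG12, BOD1, C19orf12, KAT2A and SSU72.

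NASP was lower across a run of 4 abutting bins around its site. Bins 32 to 35 (chromosome 1, 46072993 to 46074009) had -0.39 to -0.28 in KD1 and -1.31 to -1.02 in KD2, with -0.53 to -0.42 in METTL3 and -0.84 to -0.75 in METTL14 per the authors' deposited table. ATPIF1 (ATP5IF1), the inhibitor of the mitochondrial ATP synthase, had a run of 6 bins with 2 sites. Its bins 7 to 9 (chromosome 1, 28562964 to 28564271) lay between -0.71 and -0.31 over all comparisons of the authors' deposited table. Bin 6 before them and the marked bin 11 after them stayed between 0.00 and 0.06. The usage in this run was thus low in the middle bins and near 0 at both ends.

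SRRT had 4 near-site bins, all below 0 in every comparison. Bin 50 (chromosome 7, 100485135 to 100485323) had -0.56 in KD1 and -0.82 in KD2, with -0.61 in METTL3 and -0.52 in METTL14 per the authors' deposited table. Bins 61 and 62, of 4 and 1 bp, both had -0.77 in METTL3 and -0.66 in METTL14. KAT2A (GCN5), a histone acetyltransferase, had -0.45, -0.64, -1.10 and -0.31 in bin 24 (chromosome 17, 40271072 to 40271262) per the authors' deposited table. SSU72, a phosphatase of the RNA polymerase II tail, had -0.48, -0.51, -1.21 and -0.43 in bin 11, of 8 bp, and BOD1, needed for chromosome biorientation, -0.35, -0.73, -0.49 and -0.48 in bin 12 per the authors' deposited table.

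The opposite pattern, both HNRNPG values past 0.3 on one side and both METTL values past 0.3 on the other, was listed for 6 bins (1.24%, background 0.531%, or 14 bins of the table). ACIN1, a component of complexes on spliced mRNA, had -0.56 and -1.70 in KD1 and KD2 and 0.89 and 0.37 in METTL3 and METTL14 in bin 1, of 8 bp, per the authors' deposited table. MKNK2 bin 8 had 0.38 and 0.91 against -0.70 and -1.09, and RFC5 bin 37 had 0.34 and 0.47 against -0.31 and -0.81 per the authors' deposited table. PPM1G, PRPF8 and TTC15 (bin 37) made up the other 3.

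In many models with several near-site bins, all of them lay on the same side. Of 68 models with at least 3 such bins, all lay on one side in 39 (57.4%) for KD1, 44 (64.7%) for KD2, 43 (63.2%) for METTL3 and 37 (54.4%) for METTL14, and in 22 models (32.4%) this held in each comparison. Among shorter bins farther from sites the counts were 45, 45, 47 and 48 of 100 models, and 28 in each comparison, with a median of 4 bins per model in both sets. In the whole table, with a median of 5 bins per model, the shares were 25.5%, 25.9%, 26.2% and 25.9% of 286 models, and 10.1% in each comparison. These differences were not tested. Near-site bins of 1 model lie close together and often abut, so they are not separate values. The 22 models included NASP, SRRT, TTC15, ZDHHC3, MBD6, CSTF3 and NPM1. MBD6, a methyl-CpG-binding domain protein, was above 0 in all 7 bins of each comparison at sizes no larger than 0.25 per the authors' deposited table. TTC15 (TRAPPC12), a subunit of the TRAPP complex of vesicle transport, had 6 bins that were all higher in KD1 and KD2 and all lower in METTL3 and METTL14. Its medians over these bins were 0.42, 0.44, -0.91 and -0.16 per the authors' deposited table, and its bins ranged from -1.29 to -0.79 in METTL3.

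DEF8 was lower as a block in METTL3 on both sides of its site. All 8 bins lay between -1.48 and -1.03 in METTL3, between -0.62 and -0.30 in KD1 and between -0.65 and -0.32 in KD2 per the authors' deposited table. In METTL14 they stayed between -0.11 and 0.17. ZDHHC3 had the same order, with 4 bins between -1.24 and -1.09 in METTL3 and between -0.18 and -0.05 in METTL14 per the authors' deposited table.

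In 26 models near-site bins lay both on a site and beside it. The median of the outside bins had the sign of the inside median in 21 models for KD1, 21 for KD2, 20 for METTL3 and 21 for METTL14. The inside value was the larger in size in 12, 14, 10 and 17 of them. Directly or through other bins, 32 outside bins of 16 models abut a marked bin, so inside and outside bins are often not separate values. No like count was made for other bins of the table, so these counts have no share beside them. They were not tested.

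In 10 models, bins at 2 different positions (before, on or after each bin's own nearest site) had medians on opposite sides of 0 in each of the 4 comparisons: ANKRD11, BCCIP, CBS, DPH3, KIAA2013, LDHA, NIT1, NUCKS1, SAMD11 and TOX4. In ANKRD11, BCCIP, NUCKS1 and SAMD11 the bins had different nearest sites, so these were not contrasts across 1 site. BCCIP bins 25 and 26 before and bin 28 after the site at chromosome 10, 127530364 were below 0 in each comparison. ANKRD11 bins 13 and 17, after and before the site at chromosome 16, 89351917, had the same sign in each comparison. How many models had bins at more than 1 position was not counted, so the 10 have no share beside them. Some rest on 1 bin per position and on values near 0, such as 0.001 in KD2 for CBS bin 13 and 0.004 in KD2 for NUCKS1 bin 3. NIT1, an amidase of the nitrilase family, showed opposite sides over the most bins. Its 8 bins before the site at chromosome 1, 161090667 had -0.18 to -0.03 in KD1 and -0.34 to -0.14 in KD2, with -0.29 to -0.09 in METTL3 and -0.26 to -0.05 in METTL14 per the authors' deposited table. Its 5 bins after the site had 0.06 to 0.25 in KD1 and 0.18 to 0.36 in KD2, with 0.10 to 0.19 in METTL3 and 0.07 to 0.35 in METTL14 per the authors' deposited table. The 13 bins did not overlap between the sides in any comparison. None of them reached 0.5.

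**Figure D5:**
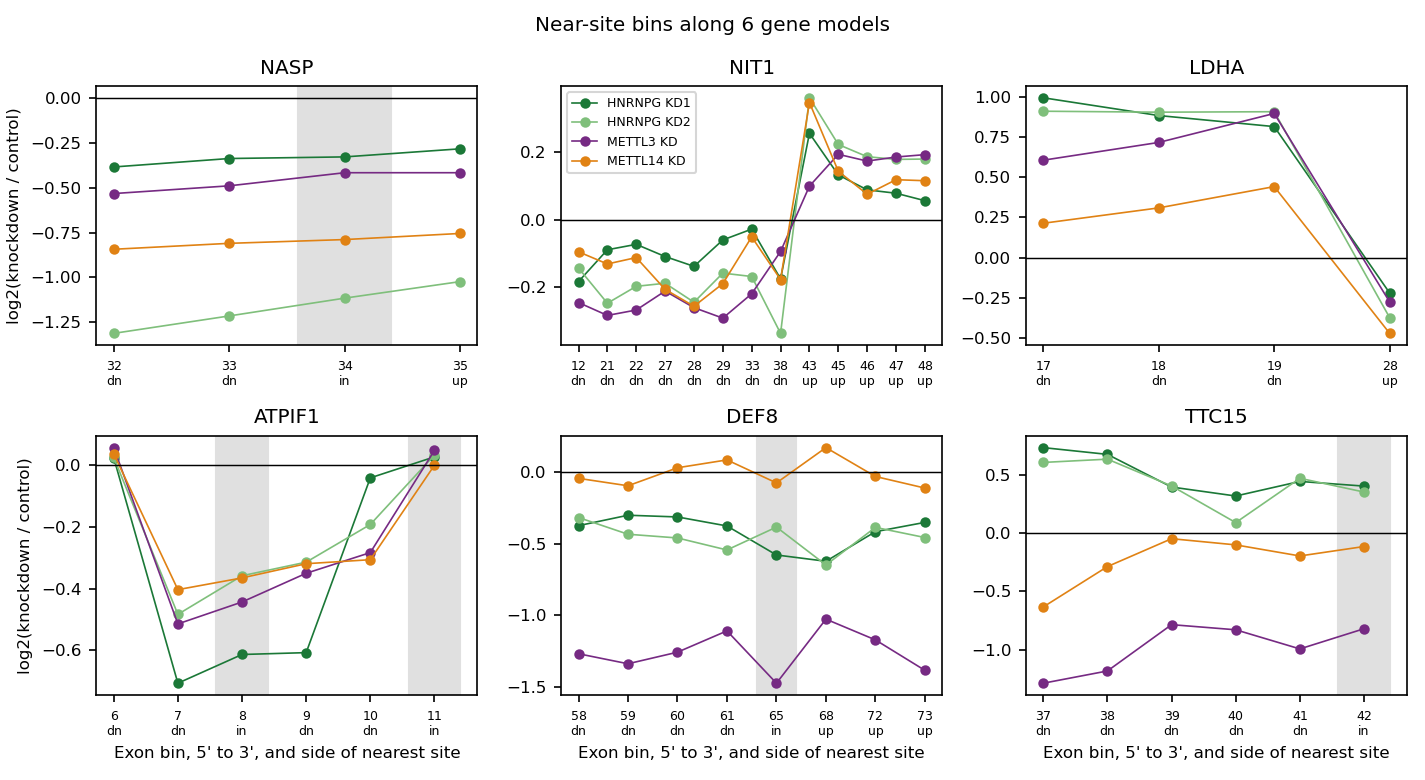
Usage of near-site bins (log2 of knockdown over control, y axis) along 6 gene models, all on the plus strand, with bins in order from 5' to 3' (x axis: bin number, and whether the nearest site is downstream, dn, inside, in, or upstream, up). Grey bands mark bins with a site inside. NASP is below 0 in all bins and comparisons, and NIT1 changes side between its bins before and after the site. LDHA bins 17 to 19, 278 to 409 bp before the site, are above 0, and bin 28, 2661 bp after it, is below 0. TTC15 is above 0 in KD1 and KD2 and below 0 in METTL3 and METTL14.

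Gene lists by function show where these bins fall. The lists are partial, and a gene with a role named above may be outside them, such as MKNK2 among kinases and PPA2 and C19orf12 among mitochondrial proteins. RNA-binding proteins of splicing and mRNA processing held 33 near-site bins of 15 genes. By the authors' deposited table, 4 were lower and 2 higher past 0.5 in HNRNPG, 8 and 5 in METTL3 and 11 and 1 in METTL14. These were 18.2%, 39.4% and 36.4% of the list, beside 7.13%, 22.4% and 16.0% of all bins, and several of the bins share a model. The medians were -0.120, -0.132, -0.238 and -0.122 in KD1, KD2, METTL3 and METTL14, all below those of all bins given above. The 11 lower METTL14 bins came from 3 genes, SRRT, PRPF8 and DDX5, and the higher one was ELAVL1 bin 18. DDX5, an RNA helicase and splicing coregulator, had 7 bins 1266 to 2219 bp past its site, between -0.62 and -0.46 in METTL14, between -0.35 and -0.21 in KD2 and between -0.12 and 0.01 in KD1 per the authors' deposited table. SF1, which recognises the branch point of introns, had a marked bin (bin 49) at -0.51 in KD1 and -0.09 in KD2, with -0.43 in METTL3 and -0.005 in METTL14 per the authors' deposited table.

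Ribosomal proteins and translation factors held 42 bins of 11 genes. None was past 0.5 in both HNRNPG knockdowns, 9 were lower and 1 higher in METTL3, and 5 lower and 2 higher in METTL14 per the authors' deposited table. The METTL3 and METTL14 shares, 23.8% and 16.7%, were near those of all bins (22.4% and 16.0%). Of these bins 81.0% were below 0 in METTL3, against 53.4% of all bins. Many of them share a gene, mostly RPS6, RPS24 or RPL31, and some abut, so this is not a share of separate genes. RPS24 bins 2 to 7, a single abutting run, all lay between -0.10 and -0.08 in METTL3 per the authors' deposited table. RPS6, the small-subunit protein phosphorylated by S6 kinases, had 10 bins 5' of its site, all below 0 in METTL3. Its bins 27 to 29 (chromosome 9, 19379760 to 19380187) had -0.83 to -0.72 in METTL3 and -0.62 to -0.34 in METTL14, while bins 21 and 22, nearest to the site, stayed between -0.057 and -0.003 per the authors' deposited table. Genes of this list have many pseudogenes, and the caution given for ACTG1 holds for them too.

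The other lists were small, so their counts say little beside the shares of all bins. Chromatin and transcription regulators (18 bins of 7 genes) had none past 0.5 in HNRNPG, 3 lower in METTL3 and 2 lower in METTL14, the last both in HDAC1, a histone deacetylase, at -0.54 and -0.80 per the authors' deposited table. Mitochondrial proteins (15 bins of 7 genes) had 1 lower in HNRNPG, 3 lower and 2 higher in METTL3 and 1 lower in METTL14. Membrane trafficking (13 bins of 6 genes) had 1 lower in HNRNPG and 3 lower in METTL3, with DNM2, the GTPase dynamin 2, at -0.62 in bin 58 per the authors' deposited table. Ubiquitin and proteasome genes (7 bins of 6 genes) had 1 higher in HNRNPG, 1 lower and 1 higher in METTL3 and 2 higher in METTL14. Signalling kinases and phosphatases (6 bins of 4 genes) had none past 0.5 in HNRNPG, 1 lower and 2 higher in METTL3 and 1 each way in METTL14.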

How the data were processed

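The RNA-seq samples, 12 libraries of HEK293T cells, were grouped by title into 6 groups of 2. Each deposited value is a log2 ratio of control to knockdown for 1 exonic bin, per the file headers. The sample descriptions name DEXSeq for this table, and hg19, TopHat 1.1.4, Bowtie 1.0.0, Cuffdiff, Cufflinks and Trimmomatic come from the submitters' processing notes, without roles. Not given in the sources used here: normalization, the rule for listing a bin, the DEXSeq version and the origin of the m6A site list. Replicates had been combined into 1 value before deposit.

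The sign was turned, so that positive is higher in the knockdown. Coordinates are hg19, counted from 1, both ends included, and distances are genomic. Near-site bins were single-gene bins under 1000 bp and at most 3000 bp from a listed site. The limits use no usage value, but they and the gene lists were chosen with earlier results of these data known. Because the table has no p-value or value per library, bins were described by a size of 0.5, medians and counts beside all 2635 bins, with no test. The text names up to 4 highest and 4 lowest bins past 0.5 per position and knockdown, bins past 0.3 in all 4 comparisons, up to 4 per gene list, models whose positions differ in side, and bins next to the limits, some left out for length. ACTG1, TUBA1B, ATG4B, ATPIF1, DEF8, ZDHHC3, DDX5, MBD6 and SF1 were in part described further after their values were seen. Of 206 symbols, 174 were current, 24 older and 8 unmatched and used as written. The rule for distance and position was tested on simulated bins. Alternatives were other sizes, distances and lengths, KD1 or KD2 alone, and 1 value per model or per run of abutting bins. Tables were handled with pandas 2.3.3 and numpy 2.4.6 in Python 3.11.15, with scipy 1.17.1 for rank correlations and matplotlib 3.10.9 for plots.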

Additional observations from a re-analysis of the deposited data

How the results depend on the processing

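No paired analysis was possible because the table holds 1 value per bin and comparison and none per library, and for the same reason no replicate could be left out. The share of HNRNPG bins past the size that were lower, 40.6% of 32, crossed 50% at a size of 1 (100% of 3 bins), in KD1 alone (52.2% of 67), in KD2 alone (60.9% of 110) and, in an alternative chosen after seeing the data, with 1 value per run of abutting bins (55.6% of 18). It was 23.8% of 21 bins within 1000 bp of a site and 36.4% of 11 with 1 value per gene model. The METTL3 share stayed between 64.4% and 71.1% and the METTL14 share between 67.3% and 77.8% under every alternative run. The number of bins past the size moved from 137 to 38 at a size of 1, 70 within 1000 bp and 59 by gene model in METTL3, and from 79 to 9, 41 and 26 in METTL14, with 52 by run of abutting bins. Limits of at most 500 bp or at least 20 bp in length left counts within 1.5 times.

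With the depth per bin unknown, the precision of values for bins of a few bp is unknown too. No source used here gives the rule for listing bins or says whether it is neutral to direction. Distances are to listed sites of the same model only.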
